A study of Mus musculus with 5 samples.

Results

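Interferon-stimulated genes (ISGs) are described here in lenses of 14-day-old mice with and without a conditional knockout of Yap1. The set holds 9 of the 22183 genes in the deposited table, chosen by symbol: Rsad2, Usp18, Ifit1, Ifit3, Isg15, Bst2, Irf7, Irf9 and Oasl2. Of these, 8 had enough counts to be tested and Isg15 did not. The cKO group (2 libraries) came from mice with Cre and either 1 or both Yap1 alleles floxed (Yap1f/+;Cre and Yap1f/f;Cre), picked for a severe eye phenotype (small eye, closed pupillary membrane). The Ctrl group (3 libraries) came from littermates with floxed Yap1 alleles (Yap1f/f or Yap1f/+), no stated Cre and no abnormality, although their genotype field reads WT. Between 4 and 6 whole lenses were pooled for every library, and no source used here names the Cre driver. The pools are the replicates (n) in every test. The cKO pools mix homozygous and heterozygous floxed mice and were chosen by phenotype, so that genotype and severity cannot be told apart.

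Interferons are secreted proteins that cells release on sensing viral or misplaced nucleic acid. Type I interferons bind the IFNAR1 and IFNAR2 receptor pair, which activates the kinases JAK1 and TYK2. These phosphorylate STAT proteins, which join IRF9 to form ISGF3, a factor that binds the interferon-stimulated response element (ISRE) in ISG promoters. The lens is a transparent organ without blood vessels of its own after early life, and resident immune cells are scarce in it.

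The ISRE is shown because all 9 genes are textbook interferon targets, of which 3 fell and 1 rose in these lenses. Promoter windows of 300 bases (250 before and 50 after the start site) were available for 8 members, from RefSeq, build GRCm38.p6. The motif GAAANNGAAA was searched on both strands and was found in 5 of them, against 3.44% of the 32851 promoter windows in the table. Each stretch below is given 5′ to 3′ on the gene's own strand, with every base of a match in capitals. The stretches are chr12:26456543-26456592 (minus strand) for Rsad2, chr19:34640765-34640833 (plus strand) for Ifit1, chr19:34583353-34583436 (plus strand) for Ifit3, chr8:71537567-71537622 (minus strand) for Bst2 and chr4:156200855-156200916 (minus strand) for Isg15.
Rsad2: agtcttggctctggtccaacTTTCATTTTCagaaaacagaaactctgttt
Ifit1: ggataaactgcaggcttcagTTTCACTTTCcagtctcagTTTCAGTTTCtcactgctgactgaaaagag
Ifit3: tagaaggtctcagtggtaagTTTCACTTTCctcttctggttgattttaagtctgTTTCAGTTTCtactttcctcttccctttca
Bst2: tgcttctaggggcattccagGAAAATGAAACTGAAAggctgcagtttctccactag
Isg15: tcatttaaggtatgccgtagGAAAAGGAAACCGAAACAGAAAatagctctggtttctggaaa

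Rsad2 had 1 match, Ifit1, Ifit3 and Bst2 had 2 each and Isg15 had 3. In Bst2 and Isg15 neighbouring matches overlap. The matches of Ifit1 and Ifit3 read TTTCACTTTC and TTTCAGTTTC, the same letters in both genes. The windows of Irf7, Irf9 and Oasl2 held no match to these letters. A second motif, TTCNNNGAA (the gamma-activated site), was found in 8.3% of all windows and, among the members, only in Bst2, as TTCCAGGAA, where it overlaps the first ISRE match. A match is a description of letters and not a bound site.

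The libraries held 22047553 to 25762805 counts. A count of 0 allows up to 3 counts, which is 0.112 to 0.146 CPM (library-size-scaled counts, with TMM factors) depending on the library, for counting error only. Genes with at least 1 count numbered 12602 and 12028 in cKO 1 and 2 and 13972 to 14199 in Ctrl. The 12 lens genes listed summed to 242418 to 249946 CPM in cKO and 210492 to 256533 CPM in Ctrl. Cryaa alone held 130181 to 167674 CPM in a library, most of each sum. All 12 were tested. On this list 3 genes fell, the epithelial markers Cdh1 and Pax6 and the fibre gene Bfsp1, and none rose. Of all tested genes 7.73% fell and 5.76% rose. Transcripts of the 4 Y-linked genes listed summed to 65.7 to 78.0 CPM in Ctrl and to 0.0816 and 0 CPM in cKO, so that the sex of the pooled mice and the genotype cannot be told apart.

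The 9 genes did not move as 1 block. In cKO lenses the antiviral genes Rsad2 and Ifit3 and the feedback inhibitor Usp18 fell, the membrane tether gene Bst2 rose, and 4 others (Ifit1, Irf7, Irf9 and Oasl2) did not pass the test. Here and below a gene is said to rise or fall only at an adjusted p under 0.05 in edgeR's quasi-likelihood test, with Benjamini-Hochberg adjustment over all 11724 genes tested. Thus 3 of 8 tested members were lower, against 7.73% of all tested genes, and 1 of 8 was higher, against 5.76%. The members were chosen with earlier results of these data known, so these shares describe the set and do not test it. In either direction 13.5% of tested genes passed. The members' median log2 fold change was −0.96, and that of all tested genes was −0.06. The calls need all 3 controls: without any 1 Ctrl library no member passed (adjusted p by edgeR of 0.0684 to 0.184 over Rsad2, Usp18, Ifit3 and Bst2), while each of the 4 changes kept its direction.

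**Figure D1:**
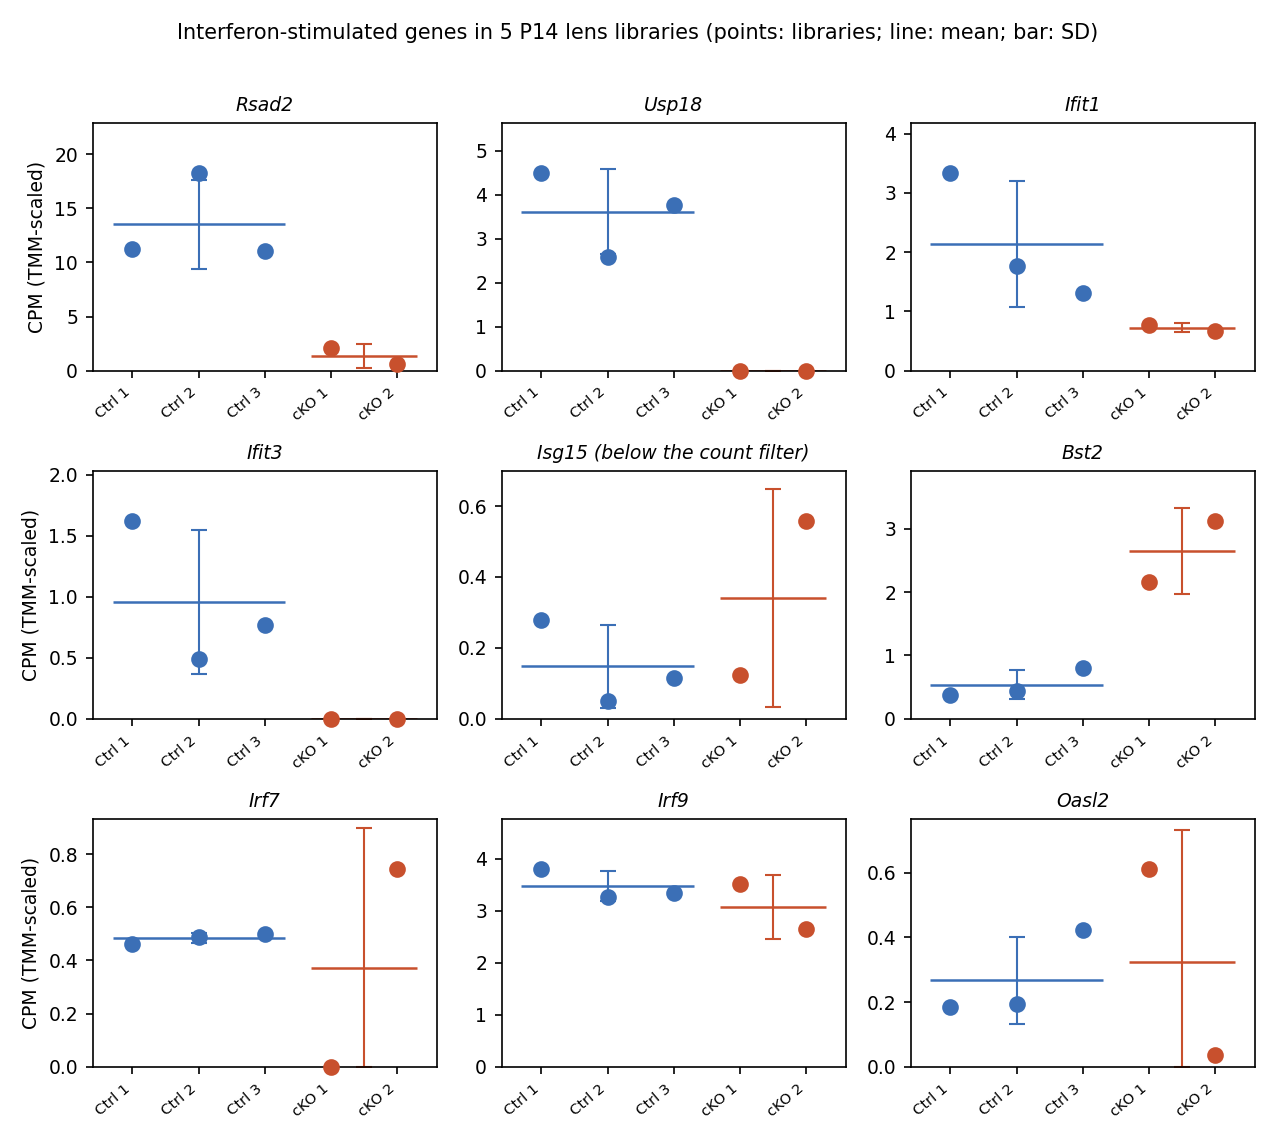
Level of each of the 9 genes in every library, in TMM-scaled CPM on linear axes that start at 0 and differ between panels. Points are libraries (blue Ctrl, orange cKO), lines are group means and bars are SDs, ended at 0. Rsad2, Usp18, Ifit1 and Ifit3 lie lower in both cKO libraries than in any Ctrl library, Bst2 lies higher, and the other 4 overlap.

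Rsad2 encodes viperin, a radical-SAM enzyme that makes a chain-terminating ribonucleotide and limits the replication of many viruses. It had the highest length-scaled level (FPKM) of the 9 members in control lenses. Rsad2 (ENSMUSG00000020641) had 242, 375 and 288 counts in Ctrl 1, 2 and 3 and 52 and 16 counts in cKO 1 and 2, which is 11.2, 18.3 and 11.1 CPM against 2.12 and 0.596 CPM. Every cKO library thus lay below every Ctrl library, a pattern shared by 28.7% of all tested genes. The means were 13.5 ± 4.14 CPM in Ctrl (SD, n = 3) and 1.36 ± 1.08 CPM in cKO (SD, n = 2), and Rsad2 fell by 3.32 on the log2 scale (SE 0.58, adjusted p = 0.0223 by edgeR), a ratio of means of 9.95. Of the summed CPM of the 9 members, which is not scaled to length, Rsad2 held 43.5 to 66.4% in Ctrl and 22.8 and 7.11% in cKO 1 and 2. In these bulk samples, fewer cells of a type and less RNA per cell cannot be told apart.

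Usp18 encodes the protease that removes ISG15 from its target proteins and that also sits on IFNAR2, where it dampens further signalling. Usp18 (ENSMUSG00000030107) had 97, 53 and 98 counts in Ctrl 1, 2 and 3 and 0 in both cKO libraries. In CPM the control libraries stood at 4.50, 2.59 and 3.76, and cKO was at least 30.9-fold lower when 3 counts are allowed in each cKO library (adjusted p = 0.00917 by edgeR). Of the 11724 genes tested, 2.03% had no count in either cKO library. Among the 4753 with a Ctrl mean of 0.5 to 5 CPM, the range in which Usp18 lies, the share was 4.19%.

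The Ifit genes encode proteins of tetratricopeptide repeats, of which IFIT1 binds viral RNA that lacks the host's cap methylation and IFIT3 is a partner in the same complexes. Ifit3 (ENSMUSG00000074896) had 35, 10 and 20 counts in Ctrl 1, 2 and 3, after rounding, and 0 in both cKO libraries. It was at least 8.20-fold lower in cKO (adjusted p = 0.0362 by edgeR), and with log2(FPKM + 1) in limma it no longer passed (adjusted p = 0.0545). Its estimated counts in all 3 Ctrl libraries were not whole numbers, like those of the near-identical Ifit3b, so the split of reads between that pair is uncertain. Ifit3b itself had 19, 8 and 3 counts in Ctrl and 0 in both cKO libraries, so that neither gene of the pair had a count in cKO.

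Ifit1 (ENSMUSG00000034459) had 72, 36 and 34 counts in Ctrl 1, 2 and 3 and 19 and 18 in cKO 1 and 2. The control values in CPM were 3.34, 1.76 and 1.30 and the cKO values 0.775 and 0.670, so that the groups did not overlap. The log2 fold change was −1.55 (SE 0.60) and did not pass (adjusted p = 0.133 by edgeR). Its 95% interval, from −3.0 to −0.10, is not adjusted for the number of genes. Ctrl 1, the highest library for Ifit1 and Ifit3, was also the highest for a list of 6 photoreceptor genes, with 35.9 CPM against 9.03 and 1.65 CPM in Ctrl 2 and 3, and the part of this in the spread among controls was not tested.

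The Ifit genes lie side by side in the mouse genome, in the order Ifit2, Ifit3, Ifit1bl1, Ifit3b, Ifit1bl2 and Ifit1 by the RefSeq table. For each of the 6, both cKO libraries lay below every control, a pattern shared by 28.7% of all tested genes. Ifit3b was too low to be tested and shares reads with Ifit3, so the 6 are not separate observations. Ifit2, whose protein binds RNA rich in A and U, had 14, 20 and 45 counts in Ctrl and 0 in cKO, at least 9.54-fold lower (adjusted p = 0.0289 by edgeR). Ifit1bl1 had 72, 60 and 70 counts in Ctrl and 0 and 12 in cKO 1 and 2, a log2 fold change of −3.68 that did not pass (SE 1.10, adjusted p = 0.0744 by edgeR). Ifit1bl2 had 4, 10 and 18 counts in Ctrl and 0 in cKO and did not pass (adjusted p = 0.0586 by edgeR). Rsad2 also has an interferon-induced neighbour, the nucleotide kinase gene Cmpk2, and that gene gave another picture. Cmpk2 had 23, 16 and 30 counts in Ctrl 1, 2 and 3, none in cKO 1 and 47 in cKO 2, the cKO library in which Rsad2 was lower. Its groups overlapped and its log2 fold change of −0.19 (SE 1.38) did not pass (adjusted p = 0.945 by edgeR).

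Bst2 encodes tetherin, a surface protein that holds budding enveloped viruses on the cell membrane. It was the only member that rose. Bst2 (ENSMUSG00000046718) had 8, 9 and 21 counts in Ctrl 1, 2 and 3 and 53 and 84 counts in cKO 1 and 2, which is 0.371, 0.439 and 0.806 CPM against 2.16 and 3.13 CPM. Both cKO libraries lay above every control, as they did for 22.8% of tested genes. The mean rose from 0.539 ± 0.234 CPM (SD, n = 3) to 2.65 ± 0.682 CPM (SD, n = 2), 4.91-fold by the ratio of means, with a log2 fold change of 2.28 (SE 0.56, adjusted p = 0.0468 by edgeR). The value lies near the threshold and did not pass when genes with low counts were kept in the fit (adjusted p = 0.0558 by edgeR).

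Macrophages express Bst2, and their transcripts were higher in the same libraries. Of 20 macrophage markers, 12 were tested, 10 were higher and none was lower, beside 5.76% higher and 7.73% lower among all tested genes. The 20 markers summed to 214 and 45.9 CPM in cKO 1 and 2 against 2.64 to 5.24 CPM in Ctrl. Of the defining markers, Adgre1 had 38 counts in cKO 1 and 0 in cKO 2, and Fcgr1 had 0 in both. Bst2 was higher in cKO 2, the library with less macrophage signal, than in cKO 1. Plasmacytoid dendritic cells carry BST2 as a surface marker. Of 7 genes listed for them 2 were tested and 1 was higher, beside the same 5.76% of all tested genes. That gene, Cox6a2, had 16.2 and 4.10 CPM in cKO 1 and 2 and 0.146 to 0.649 CPM in Ctrl (adjusted p = 0.0211 by edgeR). The list summed to 17.4 and 5.10 CPM in cKO 1 and 2, most of it Cox6a2, and to 1.17 to 2.04 CPM in Ctrl. The other tested gene, Pacsin1, stood at −0.32 and did not pass (adjusted p = 0.717 by edgeR). Of the 7 genes, 5 had no count in either cKO library, and the defining gene Siglech had none in any library. A list of 7 endothelial markers summed to 23.1 and 14.9 CPM in cKO 1 and 2 and 7.61 to 12.8 CPM in Ctrl, with none called. The lymphocyte list had 1 of 13 genes tested, which was not called, and Cd3e and Cd8a had no count in any library. The part of macrophages, plasmacytoid dendritic cells or endothelium in the Bst2 result was not tested.

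**Figure D2:**
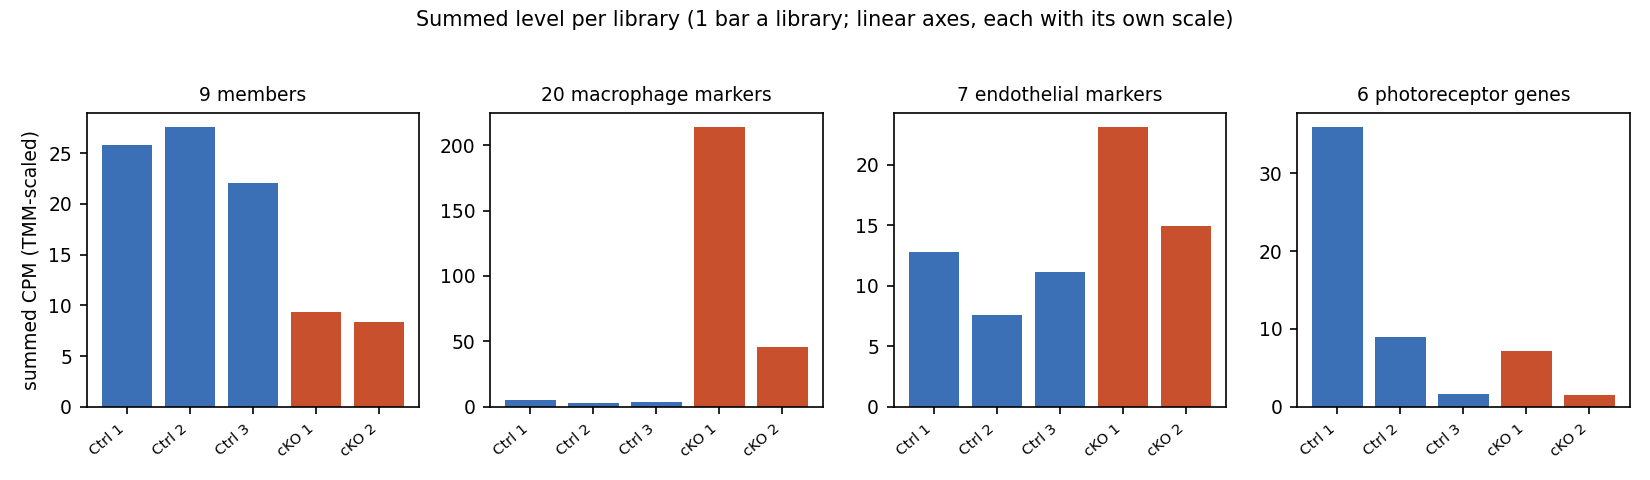
Summed TMM-scaled CPM per library of the 9 interferon-stimulated genes and of marker lists for macrophages, endothelium and photoreceptors, with 1 bar a library (blue Ctrl, orange cKO) and a separate linear scale in each panel. The 9 genes sum to 22.1 to 27.6 CPM in Ctrl and 9.31 and 8.38 CPM in cKO, whereas the macrophage list is highest in cKO 1.

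The remaining members did not separate the groups. Irf9, the DNA-binding subunit of ISGF3, had 82, 67 and 87 counts in Ctrl and 86 and 71 in cKO 1 and 2, with a log2 fold change of −0.17 (SE 0.31, adjusted p = 0.747 by edgeR). Its 95% interval ran from −0.93 to 0.58, and its sign turned under total-count scaling (0.0287). Irf7, the factor that amplifies interferon gene expression, had 10, 10 and 13 counts in Ctrl and 0 and 20 in cKO 1 and 2, so that the cKO libraries lay on either side of all controls (log2 fold change −0.36, SE 1.33, adjusted p = 0.880 by edgeR). Without cKO 1 the log2 fold change of Irf7 was 0.60. Without cKO 2, which leaves only the 0 counts of cKO 1, it was −6.50, a value that is no size. Oasl2, an OAS-like protein with ubiquitin-like repeats, had 4, 4 and 11 counts in Ctrl and 15 and 1 in cKO 1 and 2 (log2 fold change 0.25, SE 1.17, adjusted p = 0.910 by edgeR). Isg15, the ubiquitin-like modifier that gives the conjugation pathway its name, had 6, 1 and 3 counts in Ctrl and 3 and 15 in cKO 1 and 2, and was too low to be tested. With no count filter its log2 fold change was 1.21 and did not pass (adjusted p = 0.560 by edgeR). These pools also disagreed within cKO: Irf7 and Isg15 were higher in cKO 2, and Oasl2 was higher in cKO 1.

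**Figure D3:**
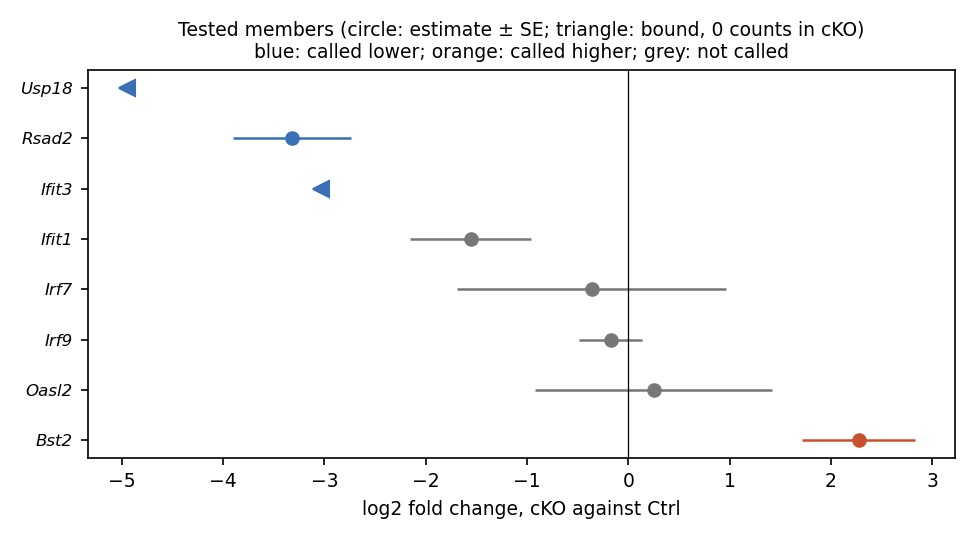
Log2 fold change of the 8 tested members, cKO against Ctrl. Circles are estimates with bars of ± 1 SE, and triangles mark bounds for genes with 0 counts in both cKO libraries. Usp18, Rsad2 and Ifit3 (blue) lie to the left and passed, Bst2 (orange) lies to the right and passed, and the 4 grey genes did not pass.

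Compared between genes on the length-scaled FPKM values of the authors, the order of the members differed in the 2 groups. In Ctrl the level ran from Rsad2 (3.08 ± 0.961 FPKM) and Usp18 (1.92 ± 0.494 FPKM) through Irf9 (1.32 ± 0.0936 FPKM), Ifit1 (0.744 ± 0.331 FPKM), Bst2 (0.654 ± 0.328 FPKM) and Ifit3 (0.507 ± 0.295 FPKM) to Irf7 (0.240 ± 0.0131 FPKM), Isg15 (0.195 ± 0.146 FPKM) and Oasl2 (0.165 ± 0.0273 FPKM), each as mean ± SD with n = 3. Rsad2 lay above Usp18 in every control library, at 2.39, 4.18 and 2.67 FPKM against 2.26, 1.36 and 2.15 FPKM, but the lowest Rsad2 value and the highest Usp18 value were close. Usp18 and Irf9 overlapped, as did Ifit1, Bst2 and Ifit3 with each other and Isg15 overlapped with both Irf7 and Oasl2, whereas every Irf7 value (0.225 to 0.249 FPKM) lay above every Oasl2 value (0.142 to 0.195 FPKM). In cKO, Bst2 led (2.75 and 4.68 FPKM in cKO 1 and 2), followed by Irf9 (1.48 and 1.46 FPKM), and Usp18 and Ifit3 were listed at 0. No test was made of these orders.

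The pathway upstream of these genes was read next, from the interferons to their targets. None of the 21 interferon genes listed (type I, II and III) had a count in any library. Receptor genes were present in both groups and none of 5 tested passed. Ifnar1 had a log2 fold change of 0.03 (SE 0.37, adjusted p = 0.973 by edgeR), and Ifnar2 one of 0.96 (SE 0.27, adjusted p = 0.0628 by edgeR), with 9.63 and 6.96 CPM in cKO 1 and 2 above 3.62 to 4.72 CPM in Ctrl. The interferon gamma receptor genes Ifngr1 and Ifngr2 stood at −0.06 and −0.25, and Il10rb, a subunit of the type III receptor, at −1.07, without passing (adjusted p = 0.964, 0.549 and 0.178 by edgeR). The type III receptor gene Ifnlr1 had 1 count in all, in Ctrl 1.

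Among kinases and transcription factors of the response, the kinase gene Jak1 fell. Jak1 had 27.7, 26.4 and 22.4 CPM in Ctrl 1, 2 and 3 and 14.2 and 10.98 CPM in cKO 1 and 2, a fall by 1.02 on the log2 scale (SE 0.19, adjusted p = 0.0271 by edgeR). Stat2 (−0.55), Tyk2 (0.07), Jak2 (−0.66) and Stat3 (0.17) did not pass, nor did Irf1 (−0.47), Irf2 (0.11), Irf3 (0.32) and Irf8 (−1.09), with edgeR adjusted p-values of 0.238 to 0.916. Irf1 was uneven, with 48 counts in cKO 1 and 0 in cKO 2 against 25 to 34 in Ctrl, and Irf5 was too low to be tested.

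Sensors of nucleic acid had 8 tested genes of 17 in the table, of which 2 rose and none fell. Among all tested genes 5.76% rose and 7.73% fell. Sting1, the adaptor that the DNA sensor cGAS activates, had 0.510, 0.732 and 0.461 CPM in Ctrl and 1.88 and 5.62 CPM in cKO 1 and 2, and rose by 2.72 on the log2 scale (SE 0.60, adjusted p = 0.0361 by edgeR). Unc93b1, which carries endosomal Toll-like receptors to their compartment, had 5, 5 and 11 counts in Ctrl and 108 and 28 in cKO 1 and 2 and rose by 3.15 (SE 0.77, adjusted p = 0.0462 by edgeR). Unc93b1 is expressed by macrophages. Like the summed level of their markers, it was higher in cKO 1 than in cKO 2, whereas Sting1 was higher in cKO 2. The part of macrophages in either change was not tested. Mavs and Tbk1, with the highest CPM on the list, stood at −0.22 and −0.11 and did not pass (adjusted p = 0.602 and 0.743 by edgeR). Cgas had 3 counts in Ctrl 2 and none elsewhere.

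Of 13 negative regulators of interferon signalling or of its triggers, 1 fell and none rose, beside 7.73% and 5.76% of all tested genes. Trex1, the exonuclease that clears cytosolic DNA and so keeps it from cGAS, stood at 101, 93.6 and 113 CPM in Ctrl 1, 2 and 3 and at 12.4 and 2.79 CPM in cKO 1 and 2. It fell by 3.76 on the log2 scale (SE 0.62, adjusted p = 0.0200 by edgeR). In length-scaled FPKM it stood at 85.6, 82.3 and 108 in Ctrl, above each of the 9 ISGs in every control library, and at 11.8 and 3.11 in cKO 1 and 2. Ptpn11, the next highest in CPM on this list, stood at −0.20 and did not pass (adjusted p = 0.575 by edgeR).

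Of the 4 enzyme genes listed for attaching ISG15 to proteins, 3 were tested and 1, Herc6, fell, beside 7.73% of all tested genes. Herc6, the ISG15 ligase of mice, had 23, 14 and 24 counts in Ctrl and 0 in both cKO libraries, at least 7.605-fold lower (adjusted p = 0.0271 by edgeR), but did not pass with log2(FPKM + 1) in limma (adjusted p = 0.0902). The E2 enzyme gene Ube2l6 had 8.12 CPM on average in Ctrl and 4.51 CPM in cKO, with a log2 fold change of −0.85 that did not pass (SE 0.27, adjusted p = 0.0865 by edgeR). Trim25, also a ligase for ISG15, had a change of −1.48 and did not pass (SE 0.47, adjusted p = 0.0871 by edgeR). The E1 gene Uba7 had 2 to 13 counts in each library and was not tested.

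A wider list of 59 other type I interferon-response genes was read in the same way. Of 56 in the table, 27 were tested, 6 fell, none rose and 21 did not pass, and 22 of the 27 had negative changes. Their median log2 fold change was −1.14, against −0.06 for all tested genes. The lower share (6 of 27) stands beside 7.73% of all tested genes. This list too was chosen with earlier results of these data known, so the shares in this paragraph are descriptions and no test. At an unadjusted p under 0.05, 14 of the 27 passed in either direction, beside 32.2% of all tested genes. Within the range of 0.5 to 5 CPM in Ctrl, 5 of 19 list genes were lower, against 6.67% of the 4753 tested genes in that range. The genes of the list had no count in either cKO library in 7 of 27 cases (25.9%), beside 2.03% of all tested genes. Within the same range of Ctrl levels the numbers were 6 of 19, beside 4.19%.

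**Figure D4:**
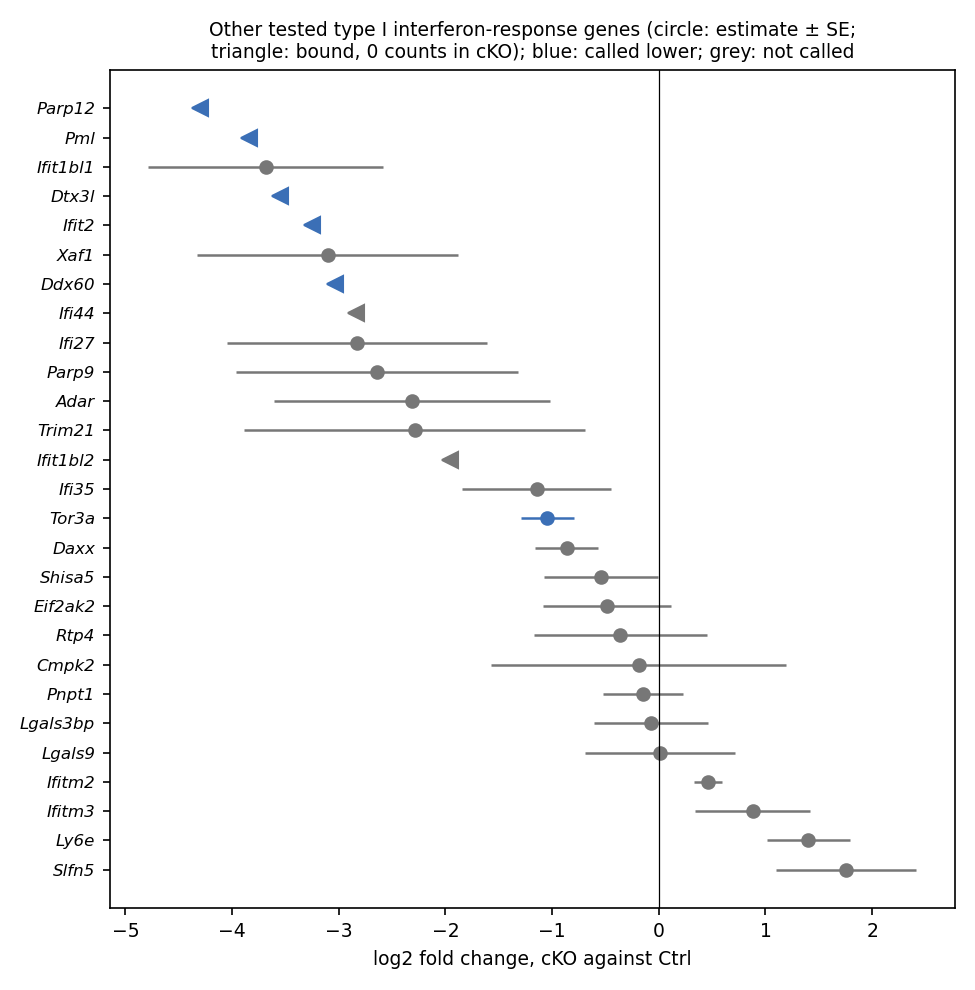
Log2 fold change, cKO against Ctrl, of the 27 tested genes of the wider interferon-response list. Circles are estimates with bars of ± 1 SE, triangles mark bounds for genes with 0 counts in both cKO libraries, blue genes passed and grey genes did not. The 6 genes that passed are all on the left, and 22 of the 27 genes have negative changes.

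The 6 genes that fell were Parp12, Pml, Dtx3l, Ifit2, Ddx60 and Tor3a. Lower genes on the wider list numbered 4 with log2(FPKM + 1) in limma, 5 under total-count scaling and with no count filter, and 9 with DESeq2. Parp12, an ADP-ribosyltransferase with antiviral activity, had 57, 38 and 63 counts in Ctrl and 0 in both cKO libraries, at least 19.7-fold lower (adjusted p = 0.0129 by edgeR). Pml, which builds the nuclear bodies that bear its name, had 31, 39 and 44 counts in Ctrl and 0 in cKO, at least 14.3-fold lower (adjusted p = 0.0161 by edgeR). Dtx3l, a ubiquitin ligase that works with PARP9, had 43, 31 and 16 counts in Ctrl and 0 in cKO, at least 11.7-fold lower (adjusted p = 0.0288 by edgeR). Its neighbour Parp9 had 44, 16 and 21 counts in Ctrl and 0 and 10 in cKO 1 and 2 and did not pass (adjusted p = 0.225 by edgeR). Ddx60, a helicase, had 25, 18 and 22 counts in Ctrl and 0 in cKO, at least 8.21-fold lower (adjusted p = 0.0254 by edgeR). Tor3a fell by 1.04 (SE 0.25, adjusted p = 0.0447 by edgeR) but did not pass under total-count scaling (adjusted p = 0.109).

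The pair of tested genes on the wider list with the highest CPM in Ctrl, Ifitm2 and Lgals3bp, did not pass. Ifitm2, which blocks the entry of viruses at endosomes, had 35.6, 32.5 and 36.3 CPM in Ctrl and 46.9 and 48.8 CPM in cKO 1 and 2, with a log2 fold change of 0.46 that did not pass (SE 0.13, adjusted p = 0.0675 by edgeR). Lgals3bp stood at −0.07 (SE 0.54, adjusted p = 0.944 by edgeR), with 85 and 363 counts in cKO 1 and 2. Next in level were Daxx, at −0.86 without passing (SE 0.29, adjusted p = 0.0994 by edgeR), and Tor3a, which fell. Ly6e, with a lower level and a positive change that did not pass, had 37, 25 and 40 counts in Ctrl and 74 and 131 in cKO 1 and 2 (log2 fold change 1.40, SE 0.39, adjusted p = 0.0628 by edgeR). Under total-count scaling Ifitm2 and Ly6e both passed as higher (0.68 and 1.64, adjusted p = 0.0440 and 0.0472 by edgeR).

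Genes that interferon gamma induces most strongly were also mixed. Of 15 tested, 1 rose, 1 fell and 13 did not pass, and the median was −0.98. The shares among all tested genes were 5.76% higher and 7.73% lower. B2m, the light chain of MHC class I, had 7.003, 5.61 and 3.53 CPM in Ctrl and 91.5 and 34.4 CPM in cKO 1 and 2 and rose by 3.55 (SE 0.47, adjusted p = 0.0129 by edgeR). B2m was higher in cKO 1, the library with the higher macrophage sum, and the part of macrophages in its change was not tested. Tapbp, which loads peptides on MHC class I, fell by 0.98 (SE 0.22, adjusted p = 0.0395 by edgeR), a call lost under total-count scaling (adjusted p = 0.0511). Psme2, a proteasome activator subunit with the highest CPM on this list after B2m, stood at 0.21 and did not pass (adjusted p = 0.506 by edgeR).

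The genes most like the members in profile were sought over the 5 libraries, as the smallest root-mean-square distance in centred log2 CPM from the mean of the 8 tested members, among 6347 other tested genes with a mean of at least 5 CPM. They were Srp68 (distance 0.0164), Azin2 (0.0485), Ephx2 (0.0732), Cux1 (0.0741) and Cebpz (0.0751), none of them on the interferon lists. Most genes of the wider interferon-response list lay below 5 CPM and were not candidates, so their absence here says little. The members themselves lay at 0.303 (Ifit1) to 1.27 (Bst2) from their own mean profile, so that the mean describes no single member closely.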

How the data were processed

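Poly(A) RNA of pooled P14 mouse lenses (2 cKO and 3 Ctrl libraries) was sequenced as read pairs of 150 bp, as the labels' protocols state. In 1 table the authors deposited expected counts (not scaled between libraries, per the values) and FPKM values (scaled to gene length and library size, per the file headers). Build GRCm39, RSEM and Trimmomatic 0.18.0 are named in the submitters' processing notes. The aligner and the counting strand are not given in those sources. In a library, 6.03 to 7.47% of expected counts were not whole (tolerance 0.001), which marks reads shared between genes.

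Expected counts were rounded, filtered with filterByExpr (minimum count 10, minimum total 15; 11724 of 22183 genes kept), scaled by TMM and compared by edgeR's quasi-likelihood test (edgeR 4.0.16, R 4.3.3) over all 5 libraries, with Benjamini-Hochberg adjustment. The script was checked on simulated data. SEs come from the F statistic (3 residual and 3.26 prior degrees of freedom). Where all cKO libraries were at 0, folds are bounds against 3 counts in each. P-values measure the spread between pools. For 20 symbols with several identifiers, the one with most counts was used. Oas1b, Mx1, Mx2 and Rigi are not among the table's symbols, and Ddx58, the older name of Rigi, is.

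Alternatives were RLE or total-count scaling, DESeq2 1.42.0, no count filter, limma 3.58.1 on log2(FPKM + 1) or log2(FPKM + 0.1), a replicate block, and leaving out each library. The members and gene lists were chosen with earlier results of these data known. Genes were named by rule: all members, every detected receptor, kinase, factor and ISG15 enzyme gene, the 2 most abundant tested and the 2 most changed called genes of other interferon lists (up to 6 called for the wider list), and the 5 nearest profiles. Some genes of these lists are not reported here. Marker lists are given mostly as sums, and neighbours of members, Cgas, Ly6e and single markers were named after their values were seen. Promoter sequences are RefSeq's, of build GRCm38.p6, and coordinates are of that build only.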

Additional observations from a re-analysis of the deposited data

How the results depend on the processing

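Rsad2, Usp18, Ifit3, Bst2 and Ifit1 kept their direction in all 12 alternatives. Leaving out 1 library at a time gave 0 to 4 lower and 0 to 1 higher members, against 3 and 1 with all libraries, 0 to 13 lower and 0 to 2 higher genes on the wider list, against 6 and 0, and 15 to 2964 lower and 6 to 2197 higher genes in all, against 906 and 675. The log2 fold changes ranged from −4.50 to −2.66 (Rsad2), −9.68 to −9.27 (Usp18), −7.89 to −6.94 (Ifit3), 1.98 to 2.74 (Bst2), −1.76 to −1.04 (Ifit1), −6.50 to 0.60 (Irf7), −0.40 to 0.0187 (Irf9) and −2.72 to 1.15 (Oasl2, which could not be tested without Ctrl 3). The values of Usp18 and Ifit3, and that of Irf7 without cKO 2, depend on the prior count and are no sizes. A lone cKO library takes its spread from the controls.

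Nothing in the labels ties equal replicate numbers together. Deviations from group means correlated at 0.11 (number 1) and −0.08 (number 2) across genes. The highest value, 0.16, was between cKO 2 and Ctrl 3, which have unlike numbers. In a group of 2 libraries the deviations mirror each other, so these values are not separate and cannot settle a pairing. With a replicate block, which leaves 1 residual degree of freedom, no member and no gene of the wider list passed in either direction (0 in each), and 68 higher and 107 lower genes passed in all. The block values were −3.58 (Rsad2, adjusted p = 0.0824), −9.38 (Usp18, 0.0616), −7.57 (Ifit3, 0.248) and 2.67 (Bst2, 0.248).

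Without the count filter Bst2 stood at 2.29 (adjusted p = 0.0558), leaving 0 higher members. With log2(FPKM + 1) Ifit3 stood at −0.57 (adjusted p = 0.0545). Irf9 turned positive under total-count scaling (0.0287), FPKM + 1 (0.0895) and FPKM + 0.1 (0.14), and Oasl2 turned negative with FPKM + 1 (−0.0176) and FPKM + 0.1 (−0.30). On the wider list 2 genes were higher under total-count scaling, DESeq2, FPKM + 1 and FPKM + 0.1. In all, higher genes numbered 1234, 1209, 1380 and 1402 under these settings, and DESeq2 gave 1521 lower genes. Lower genes numbered 717, 743 and 835 under total-count scaling, FPKM + 1 and FPKM + 0.1. Total-count scaling moved the median of all genes from −0.06 to 0.16. The causes were not tested. Depth limits Isg15, Irf7 and Oasl2, with 0 to 20 counts a library.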
